A study of Mus musculus with 15 samples.

Results

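The mitochondrial genome of the mouse contributed 37 of the 54532 genes in the deposited expression table. They were taken as every gene placed on chromosome MT: 13 protein-coding genes, 2 ribosomal RNA (rRNA) genes and 22 transfer RNA (tRNA) genes. Levels were measured by poly-A RNA sequencing of left ventricles from C57BL/6JRj females aged 12 to 18 weeks, at day 8 after surgery, in 3 groups of 5 libraries. Sham mice had surgery without infarction and received the vehicle, 20% Captisol. MI mice had a permanently tied coronary artery and received the same vehicle. GSK mice are taken, from the treatment protocol, to have had the same ligation, and received 20 mg/kg GSK-343, an inhibitor of the histone methyltransferase EZH2, in 20% Captisol. Injections were daily and intraperitoneal, from 6 h after surgery to day 7. No genetic alteration is named for any group, and Sham replicates 1 and 2 each pooled RNA of 2 animals.

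The mitochondrial genome is a small circle, present in many copies per cell, that is transcribed from both strands into long precursors covering many genes. The tRNA genes lie between the other genes, and excision of the tRNAs at their ends releases the messenger RNAs (mRNAs) and rRNAs. The mRNAs encode membrane subunits of the respiratory chain and of ATP synthase, the rRNAs build the mitochondrial ribosome and the tRNAs serve translation inside the organelle. All proteins that copy, transcribe, cut and stabilise this RNA are encoded in the nucleus. Heart muscle cells are densely packed with mitochondria, which supply most of their ATP.

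In mm10, 7 unprocessed pseudogenes annotated on chromosome 1, between 24611535 and 24616197 on the minus strand, are nearly identical to mitochondrial genes. Their matches span positions 6390 to 11042 of chromosome MT, a stretch of 4653 nt, and sequence between the pseudogenes was not compared. No annotated copy of mt-Atp8 was found, and it is counted in the stretch by its position. Of the 13 protein-coding genes, 6 lie within this stretch (mt-Co2, mt-Atp8, mt-Atp6, mt-Co3, mt-Nd3 and mt-Nd4l), 2 lie partly in it (mt-Co1 by 31.3% and mt-Nd4 by 63.6% of their length) and 5 lie outside it (mt-Nd1, mt-Nd2, mt-Nd5, mt-Nd6 and mt-Cytb). Other annotated transcripts resembled mitochondrial genes less closely, all under 99% identity. How the authors counted fragments that fit both places is not given in the sources used here. The 3 classes are therefore also summed apart, while counts, medians, shares and ratios over the 13 genes pool them. The coding sequence of mt-Nd4l (MT:9877-10173, plus strand) is shown as an example of the likeness, with the bases identical to the chromosome 1 copy Gm10222 in capitals, from GENCODE vM21 transcripts on GRCm38.
mt-Nd4l: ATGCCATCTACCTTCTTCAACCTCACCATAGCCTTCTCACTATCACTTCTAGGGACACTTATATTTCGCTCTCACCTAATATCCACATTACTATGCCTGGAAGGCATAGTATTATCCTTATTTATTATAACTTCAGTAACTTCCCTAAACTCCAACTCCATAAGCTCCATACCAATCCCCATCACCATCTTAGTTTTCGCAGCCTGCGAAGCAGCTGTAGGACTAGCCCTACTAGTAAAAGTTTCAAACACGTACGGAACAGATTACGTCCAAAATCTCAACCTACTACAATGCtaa

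Over the 294 aligned bases mt-Nd4l and Gm10222 did not differ, and the same held for the aligned parts of mt-Co2, mt-Atp6, mt-Co3 and mt-Nd4 with their copies. The alignments of mt-Co1 with Gm29216 and of mt-Nd3 with Gm28438 each held a single mismatch, A1066T and T3C, with the mitochondrial base first and positions counted from 1 at the 5′ end of the mitochondrial gene. The differing base is in capitals in the windows below, which show how little sequence separates the genes from their copies.
mt-Co1: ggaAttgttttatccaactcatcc
Gm29216: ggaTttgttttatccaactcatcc
mt-Nd3: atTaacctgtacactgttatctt
Gm28438: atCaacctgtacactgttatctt

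The tRNA genes are 59 to 75 nt long, shorter than a 150-nt read, so a fragment counted to one can also hold neighbouring sequence. The 3 tRNA genes with the highest mean level are all on the minus (light) strand: mt-Tc for cysteine at MT:5192-5257, mt-Tp for proline at MT:15356-15422 and mt-Tn for asparagine at MT:5089-5159. Their sequences are given 5′ to 3′ with the anticodon, found in a 7-base loop on a stem of 5 pairs, in capitals.
mt-Tc: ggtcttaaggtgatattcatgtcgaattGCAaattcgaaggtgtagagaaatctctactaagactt
mt-Tp: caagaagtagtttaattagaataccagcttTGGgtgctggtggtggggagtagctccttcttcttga
mt-Tn: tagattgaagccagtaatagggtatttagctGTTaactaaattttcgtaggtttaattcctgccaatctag

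Between 21.5 M and 26.8 M fragments (M, mega) were assigned to genes per library. Levels are in FPKM, fragments per kilobase of gene and per M of a library total, and the deposited total follows a median-of-ratios factor, so a level is relative to the median gene of its library. The tissue carried its defining markers: all 10 cardiomyocyte genes examined stood at 27.2 FPKM or more in every library, while of 5 skeletal muscle genes Myh4 was listed at 0 in all 15 and Myh1 reached at most 0.0172 FPKM. The other 3 were present, Acta1 at 29.6 to 1940.1 FPKM, Ckm at 89.8 to 403 FPKM and Tnnt3 at 0.287 to 3.56 FPKM, and the 5 genes together (mean ± SD, n = 5) had 621 ± 296 FPKM in Sham, 1258 ± 626 FPKM in MI and 1037 ± 576 FPKM in GSK. Atrial markers varied widely between libraries: 5 genes (Myl7, Myl4, Sln, Nppa and Bmp10) summed to 106 to 1761 FPKM in Sham, 280 to 2100 in MI and 332 to 2108 in GSK. In the mitochondrial genes the libraries of MI replicate 4, GSK replicate 3 and GSK replicate 4 differed from the rest, as described below, and results that rest on these 3 are given with and without them. They held the highest mitochondrial shares of their groups. Leaving them out therefore lowers the summed mRNA levels of MI and GSK by construction, and tests without them are no independent support. Nothing but the sample names says that replicates came from separate animals, so the p-values measure the spread between these libraries.

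Mitochondrial transcripts made up 41.6% ± 0.35 (SD, n = 5) of the summed FPKM in Sham, 38.3% ± 8.49 (n = 5) in GSK hearts and 29.0% ± 6.74 (n = 5) in MI hearts. The 5 Sham libraries lay between 41.2% and 42.2%. The MI libraries in replicate order had 27.6%, 27.5%, 26.0%, 40.6% and 23.2%, and the GSK libraries 31.8%, 31.9%, 46.4%, 48.7% and 32.7%. All MI libraries were below Sham, with replicate 4 close to it, while GSK replicates 3 and 4 were above every Sham library and the other 3 GSK libraries below. Without the 3 libraries that stood apart, the share was 26.1% ± 2.03 (n = 4) in MI and 32.1% ± 0.467 (n = 3) in GSK. In ventricular tissue, a smaller number of cells of a type and less RNA per cell cannot be told apart. The summed level of the cardiomyocyte markers was 19260.2 to 24759 FPKM in Sham, 12292 to 25052 in MI and 15562 to 22723 in GSK, and 6 of its 10 genes were lower and 1 higher in MI than in Sham by the test described next, where 43.8% of all tested genes were called and 21.9% were lower. The sum of 7 fibroblast markers was 201 to 280.4 FPKM in Sham, 653 to 1645 in MI and 391 to 1546 in GSK, and that of 6 macrophage markers 222 to 280.1, 457 to 788 and 332 to 754. By the same test 5 of the 7 and 5 of the 6 were higher in MI than in Sham, and none was lower. Of all 12585 tested genes, 2757 were higher. The part of these cell types in the mitochondrial levels was not tested.

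**Figure D1:**
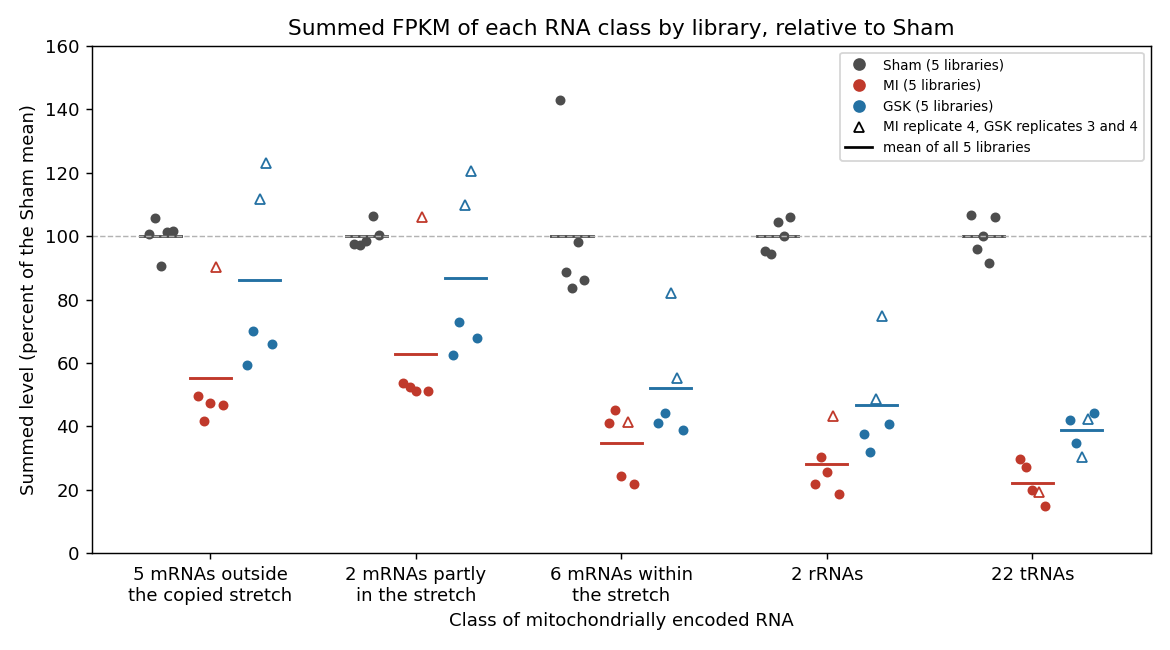
Summed FPKM of 5 classes of mitochondrially encoded RNA in each library, in percent of the Sham mean (vertical axis), for Sham, MI and GSK, with lines at group means. In the 3 libraries drawn as open triangles the mRNAs outside the copied stretch stood at 90.4%, 112% and 123% of Sham, while the tRNAs stood at 19.3%, 30.3% and 42.3%.

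After infarction, levels of most mitochondrial mRNAs were lower. Differences were tested with limma on log2(FPKM + 1) over the 12585 genes that reached 1 FPKM in 5 or more libraries, and a call means an adjusted p (Benjamini-Hochberg) below 0.05. Of the 13 protein-coding genes, 12 fell in MI against Sham and none rose, where 43.8% of all tested genes were called and 21.9% were lower. Their median difference was -1.16 on the log2 scale, beside -0.02 over all tested genes. Without MI replicate 4 and GSK replicates 3 and 4 all 13 fell, with a median of -1.34, beside 46.7% of all genes called and 23.9% lower. Under the 3 other scalings tried, 11 of the 13 differences stayed below 0, while quantile normalization gave 0 for mt-Co1 and 0.0697 for mt-Cytb. Quantile normalization gives equal ranks equal values, so it cannot show a change of mt-Co1, the highest mitochondrial gene in every library. mt-Cytb exceeded mt-Nd1 except in Sham replicate 1 (25712 against 26657.5 FPKM), and its 0.0697 rests on that exchange of rank. In 8 of the 13 genes all MI libraries lay below all Sham libraries, which held for 14.2% of all tested genes.

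The complex I subunits, which form the membrane arm of NADH dehydrogenase, differed in size of change. mt-Nd3 showed the largest difference of the 13 genes. Its level was 425, 427, 378, 723 and 464 FPKM in Sham replicates 1 to 5, 96.3, 115, 97.2, 134 and 79.2 FPKM in the MI replicates and 168, 343, 458, 185 and 269.6 FPKM in the GSK replicates. All MI libraries were below all Sham and all GSK libraries, and Sham replicate 4 was the highest of the 15. The MI minus Sham difference was -2.18 ± 0.26 (SE, n = 5 per group; limma adjusted p = 3.45e-05). mt-Nd4l fell by 2.10 ± 0.42 (adjusted p = 0.00104), from a mean of 1237 ± 385 to 303 ± 129 FPKM (SD, n = 5). The other 4 heavy-strand subunits changed less. mt-Nd1 went from 25747 ± 1885 to 12834 ± 4251 FPKM (log2 difference -1.05, adjusted p = 0.00187) and mt-Nd2 from 18183 ± 1136 to 8472 ± 2876 FPKM (-1.16, adjusted p = 0.00253). mt-Nd4 had 12120.3 ± 650.5 FPKM in Sham and 6450.0 ± 2520.2 in MI (-0.98, adjusted p = 0.0037), and mt-Nd5 12929 ± 691 and 7316 ± 3183 FPKM (-0.90, adjusted p = 0.0145).

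mt-Nd6 is the single protein-coding gene on the minus (light) strand and also encodes a complex I subunit. Sham replicates 1 to 5 had 12256, 11120.5, 9839, 10044 and 11814 FPKM. The MI replicates had 3071, 5707, 3707, 14502 and 2459 FPKM, and the GSK replicates 7169, 6550.1, 13400.4, 17371 and 6708 FPKM. MI replicate 4 exceeded every Sham library while the other 4 MI libraries were below all of them, so the groups overlapped through 1 library. The log2 difference of MI minus Sham was -1.22 ± 0.41 (limma adjusted p = 0.0248), and -1.63 ± 0.21 without the 3 libraries (adjusted p = 0.000143). The call was lost without MI replicate 1, 3 or 5 (-1.13 to -0.99), and also with no filter on low values (adjusted p = 0.318), with FPKM totals equalised (-0.84), with quantile normalization (-0.66) and without the mixed Sham libraries (-1.16). mt-Nd6 shares 14 nt with mt-Nd5 on the opposite strand, and the strand setting of the counting is not given in the sources used here.

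mt-Cytb, the single mitochondrially encoded subunit of complex III, showed the smallest difference of the 13 genes. It had 25712, 29362, 25812, 29959.8 and 28516 FPKM in Sham, 17919, 12762, 17515, 25344 and 18006 FPKM in MI and 18830.3, 22379, 30540.4, 34799 and 20946 FPKM in GSK, in replicate order. Each MI library was below each Sham library, with replicate 4 just below, and the GSK libraries spanned values on both sides of Sham. The MI minus Sham difference was -0.64 ± 0.21 (limma adjusted p = 0.0235); the call was lost without Sham replicate 4 (-0.61, adjusted p = 0.052), MI replicate 2 (-0.52, adjusted p = 0.0566) or MI replicate 3 (-0.63, adjusted p = 0.0502).

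Of the 3 complex IV genes, which encode the catalytic core of cytochrome c oxidase, mt-Co1 had the highest level of all mitochondrial genes. Its Sham libraries had 58749.7, 58849, 60867, 65245 and 60854 FPKM. The MI libraries had 34042, 32136, 32067, 66571 and 32709 FPKM, and the GSK libraries 38329, 45069, 68252, 74116 and 41784 FPKM. The 4 MI libraries other than replicate 4 stood between 32067 and 34042 FPKM, below all Sham libraries, while MI replicate 4 and GSK replicates 3 and 4 were above all 5 Sham libraries. The MI minus Sham difference of -0.69 ± 0.25 passed the test (limma adjusted p = 0.0335) but did so with little room: it was lost on leaving out any one of the 5 Sham libraries or MI replicates 1, 2, 3 or 5 (-0.70 to -0.63), and was -0.90 without the 3 libraries (adjusted p = 0.000353). Scaling moved its size as well, to -0.31 with FPKM totals equalised (adjusted p = 0.173), -0.59 with totals without MT genes (adjusted p = 0.0920) and 0 with quantile normalization, and the call was also lost with no filter on low values and without the mixed Sham libraries (adjusted p = 0.0867). The 0 of quantile normalization was fixed by the rank of mt-Co1 and does not measure its change. mt-Co2 went from 3273 ± 629 to 1043 ± 449 FPKM (-1.72, adjusted p = 0.000247). mt-Co3 had 1310.0 ± 658 FPKM in Sham and 731 ± 331 in MI, and its difference of -0.85 did not pass (adjusted p = 0.0867, 95% interval -1.68 to -0.03); it did so without MI replicate 4 (-1.05, adjusted p = 0.0453).

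The ATP synthase subunits mt-Atp8 and mt-Atp6, whose reading frames overlap by 43 nt, both fell. mt-Atp8 had the lowest level of the protein-coding genes, 50.4 ± 14.4 FPKM in Sham against 11.9 ± 5.35 in MI (-2.04, adjusted p = 0.000137). mt-Atp6 had 1499 ± 663 against 537 ± 171 FPKM (-1.41, adjusted p = 0.00381). Between the lowest and highest gene the mean level over 15 libraries spanned 1823-fold, although the heavy-strand genes are transcribed as common precursors. The 6 genes within the copied stretch had Sham means of 50.4 to 3273 FPKM and the 7 others of 11015 to 60913 FPKM, so no gene within the stretch reached the level of one outside or partly in it. The log2 differences of MI minus Sham had a median of -1.88 for the 6 genes within the stretch, -1.05 for the 5 outside and -0.84 for the 2 partly in it. They did not separate by class, since mt-Co3 within the stretch (-0.85) changed less than mt-Nd6 outside it (-1.22). The part of fragments that fit both places was not tested.

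**Figure D2:**
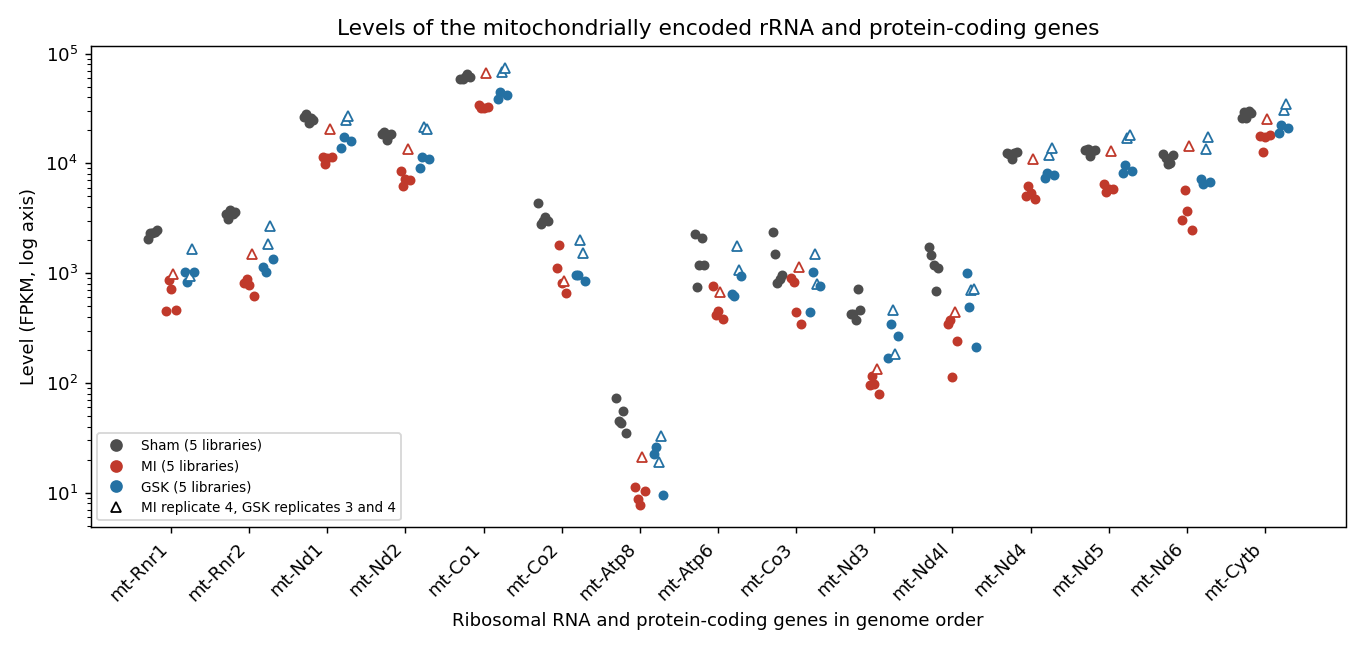
Level in FPKM (log axis) of the 2 rRNA and 13 protein-coding genes in genome order, 1 point per library, for Sham, MI and GSK. The genes of the copied stretch, from mt-Co2 to mt-Nd4l, lie below the other protein-coding genes, and the open triangles (MI replicate 4, GSK replicates 3 and 4) reach or pass Sham in mt-Co1 and mt-Nd6 but not in the rRNAs.

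The rRNAs fell further than most mRNAs. The small-subunit rRNA, mt-Rnr1, had 2057, 2312, 2306, 2353 and 2496 FPKM in Sham, 449, 860.4, 712, 992 and 459 FPKM in MI and 1017, 834, 947, 1657 and 1014 FPKM in GSK. The large-subunit rRNA, mt-Rnr2, had 3436, 3138, 3721, 3422 and 3618 FPKM in Sham, 819, 889, 774, 1508 and 624 FPKM in MI and 1146, 1017, 1854, 2670.2 and 1342 FPKM in GSK. For both genes all 10 libraries from infarcted hearts, the 3 that stood apart included, were below all 5 Sham libraries. The MI minus Sham difference was -1.80 ± 0.23 for mt-Rnr1 (limma adjusted p = 5.13e-05) and -1.97 ± 0.26 for mt-Rnr2 (adjusted p = 6.21e-05). A poly-A library holds only the rRNA that carries a tail or enters otherwise, so these levels are not those of total rRNA.

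The tRNA genes showed the largest differences. In a poly-A library their rows hold only RNA that carries a tail or enters otherwise, so these levels are not those of mature tRNA. Of the 22, 16 had at least 1 FPKM in all 15 libraries, with Sham means from 59.4 to 2355 FPKM, and all 16 fell in MI, where 21.9% of all tested genes were lower, with a median log2 difference of -2.26 (range -3.61 to -1.70). Light-strand and heavy-strand genes did not stand apart, with medians of -2.24 over 7 genes and -2.28 over 9. The strand setting of the counting is not given, so fragments of either strand may be held in both sets. In each of the 16, all MI libraries lay below all Sham libraries, which held for 14.2% of all tested genes. The largest differences were those of mt-Tp (-3.61), mt-Te for glutamic acid (-3.38), mt-Tl1 for leucine (-3.19) and mt-Ti for isoleucine (-2.85). The 12 others were mt-Tm (-2.55), mt-Tq (-2.54), mt-Tg (-2.42), mt-Tl2 (-2.28), mt-Ty (-2.24), mt-Ts2 (-2.19), mt-Tr (-2.10), mt-Tw (-2.06), mt-Tc (-1.89), mt-Ta (-1.88), mt-Th (-1.76) and mt-Tn (-1.70). mt-Tt, mt-Ts1 and mt-Tv passed the filter with some libraries under 1 FPKM, and since they passed through the group in which they were high their differences are not counted. mt-Tk, mt-Td and mt-Tf did not pass, and mt-Tf was listed at 0 in every library.

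Among single tRNA genes, mt-Tp separated the libraries most. It had 2549.6, 2223, 2276, 2048 and 2677 FPKM in Sham, 649.7, 1333, 132, 30.7 and 70.0 FPKM in MI and 1389.7, 1145, 152, 157 and 1320.4 FPKM in GSK, in replicate order. The lowest value was that of MI replicate 4, and GSK replicates 3 and 4 were the lowest of their group, at 43 fragments or more in each library. mt-Tc, with 2092 ± 102 FPKM in Sham, had 586 ± 169 in MI and 1049.9 ± 363 in GSK, and there the same 3 libraries were the highest of their groups, at 779, 1278 and 1536 FPKM. mt-Tn stood at 1017 ± 251, 319 ± 109.7 and 472 ± 61.0 FPKM. Both mt-Tp and mt-Tc are light-strand genes, so the 3 libraries did not order the light-strand tRNAs alike.

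The 3 libraries that stood apart differed from the rest to an extent that varied by RNA class. The 5 mRNAs outside the copied stretch summed to 90.4%, 112% and 123% of the Sham mean in MI replicate 4, GSK replicate 3 and GSK replicate 4, against 41.7% to 49.5% in the other MI and 59.4% to 70.1% in the other GSK libraries. Their rRNAs summed to 43.3%, 48.5% and 75.0% of Sham, and their tRNAs to 19.3%, 30.3% and 42.3%. Among protein-coding genes, 9, 2 and 4 of 13 lay below every Sham library in these 3 libraries, against 11 to 13 in the other 7 libraries from infarcted hearts. GSK replicate 3 was above every Sham library in 5 genes (mt-Nd2, mt-Co1, mt-Nd5, mt-Nd6 and mt-Cytb) and GSK replicate 4 in the same 5 and mt-Nd4. MI replicate 4 was above in mt-Co1 and mt-Nd6. The share of all tested genes outside the Sham range in each library is not at hand, so these counts only describe the libraries. The marker sums of these 3 libraries were 18033 to 18972 FPKM for cardiomyocyte genes, 503 to 1072 for fibroblast genes and 332 to 621 for macrophage genes, where the 332 FPKM of GSK replicate 4 was the lowest macrophage sum of the GSK group. What sets these libraries apart was not tested.

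Set against the mRNAs of the same library, a ratio that does not depend on library scaling, the rRNAs had 3.04 to 3.65 FPKM per 100 FPKM of the 13 protein-coding genes in Sham, 1.29 to 2.14 in MI and 1.45 to 2.06 in GSK. The tRNAs had 4.80 to 5.79 per 100 in Sham, 1.10 to 3.18 in MI and 1.50 to 3.81 in GSK. In both ratios all 10 libraries from infarcted hearts lay below all 5 Sham libraries, with MI and GSK overlapping. The ratio of mt-Rnr2 to mt-Rnr1 and that of mt-Nd6 to mt-Nd5 overlapped between all groups: mt-Nd6 had 0.777 to 0.932 of the mt-Nd5 level in Sham, 0.419 to 1.12 in MI and 0.684 to 0.950 in GSK.

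**Figure D3:**
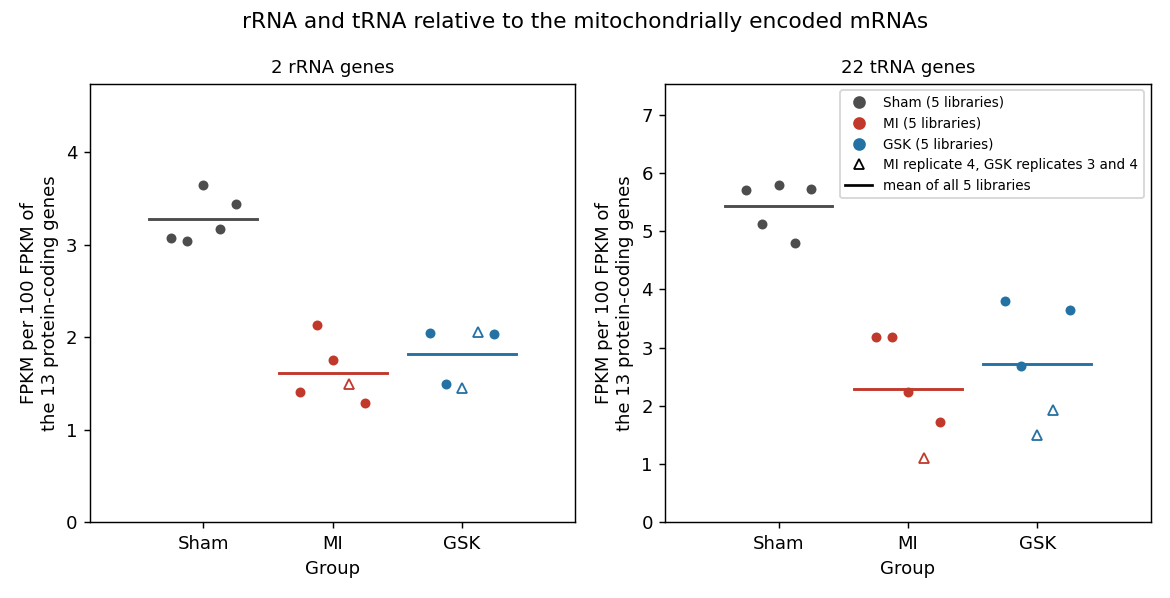
Summed FPKM of the 2 rRNA genes (left) and the 22 tRNA genes (right) per 100 FPKM of the 13 protein-coding genes, 1 point per library, with lines at group means. Every MI and GSK library lies below every Sham library in both panels, the highest being 2.14 against a lowest Sham value of 3.04 for rRNA and 3.81 against 4.80 for tRNA.

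GSK-343 after infarction was compared with vehicle after infarction, a comparison that shares the MI libraries with the one above, so that the values are given side by side only. No mitochondrial gene was called between GSK and MI by limma, where 0% of all 12585 genes were called. At an unadjusted p under 0.05 there were 2638 genes (21%), and 10.8% of all genes were higher at that level; among them were 10 of the 13 protein-coding genes, both rRNA genes and 10 of the 16 tRNA genes. The weighted count model voom, run on recovered fragments, called 2 genes in all and none of the 13 protein-coding genes. The log2 differences of the 13 genes were above 0 (with quantile normalization, which gives equal ranks equal values, those of mt-Nd1, mt-Co1 and mt-Cytb were 0), with a median of 0.75 beside 0.00 over all tested genes. They were 0.62 for mt-Nd1, 0.76 for mt-Nd2, 1.36 for mt-Nd3, 1.02 for mt-Nd4l, 0.63 for mt-Nd4, 0.75 for mt-Nd5 and 1.00 for mt-Nd6 in complex I, 0.47 for mt-Cytb, 0.45 for mt-Co1, 0.28 for mt-Co2, 0.33 for mt-Co3, 0.85 for mt-Atp6 and 0.83 for mt-Atp8.

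mt-Nd3 had the lowest adjusted p of the 13 genes in this comparison (0.0751, 95% interval 0.81 to 1.91). It was also the only protein-coding gene whose 5 GSK libraries were all above the 5 MI libraries, which held for 1.15% of all tested genes. Leaving out one library made it pass in 4 cases, without MI replicate 1 (limma adjusted p = 0.0294), MI replicate 4 (0.0482), GSK replicate 1 (0.0469) or GSK replicate 5 (0.0416). Without GSK replicate 5 mt-Atp8 passed too (1.09, adjusted p = 0.0496). Among the tRNA genes mt-Te alone had all GSK libraries above all MI libraries (148 to 401 FPKM against 28.1 to 130.1), with a log2 difference of 1.45 (adjusted p = 0.102). Without the 3 libraries that stood apart no mitochondrial gene was called (0% of all genes), the median of the 13 genes was 0.55, and mt-Co2 changed sign (-0.14).

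GSK hearts were then set against Sham, a comparison that shares libraries with both others. Of the 13 protein-coding genes 3 fell, where 18.3% of all tested genes were called and 7.58% were lower: mt-Co2 (-1.44, limma adjusted p = 0.00374), mt-Atp8 (-1.21, adjusted p = 0.0144) and mt-Nd3 (-0.82, adjusted p = 0.0382). The median of the 13 was -0.43, beside -0.02 over all tested genes. The other 10 did not pass, with -0.43 for mt-Nd1, -0.40 for mt-Nd2, -0.24 for mt-Co1, -0.56 for mt-Atp6, -0.52 for mt-Co3, -1.09 for mt-Nd4l, -0.35 for mt-Nd4, -0.22 for mt-Nd6, and -0.16 for mt-Nd5 and -0.17 for mt-Cytb, which were 0.0445 and 0.0377 with FPKM totals equalised. Their intervals were wide: that of mt-Nd6 ran from -1.09 to 0.64 and that of mt-Co1 from -0.76 to 0.28. mt-Nd3 lost the call on leaving out Sham replicate 1, 2, 4 or 5 or GSK replicate 1, 4 or 5 (adjusted p up to 0.0996), and also with no filter on low values, with each of the 3 other scalings and without the mixed Sham libraries (adjusted p up to 0.146).

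The 3 libraries that stood apart decided this count. Without them 9 of the 13 genes fell in GSK against Sham, with a median of -0.78, where 21.7% of all tested genes were called and 8.67% were lower. The direction of this move was fixed in advance, since GSK replicates 3 and 4 had the highest summed mRNA levels of their group. All 5 complex I genes not called before other than mt-Nd4l (mt-Nd1, mt-Nd2, mt-Nd4, mt-Nd5 and mt-Nd6) then passed, as did mt-Co1 (-0.55, limma adjusted p = 0.0223). mt-Atp6, mt-Co3, mt-Nd4l and mt-Cytb did not. The GSK means without them were 41727 FPKM for mt-Co1, 20718 for mt-Cytb and 15678 for mt-Nd1, and the MI means without replicate 4 were 32739, 16550.5 and 10955 FPKM. The rRNAs fell with or without them, although neither was called with quantile normalization: the difference was -1.11 for mt-Rnr1 and -1.20 for mt-Rnr2 over all libraries (adjusted p = 0.00552 and 0.00704), and -1.27 and -1.58 without them. Of the 16 tRNA genes 14 fell in GSK against Sham, with a median of -1.45; mt-Th (-0.65, adjusted p = 0.0966) and mt-Tp (-2.09, adjusted p = 0.117) did not pass. In all 16 the GSK libraries lay wholly below Sham, which held for 7.79% of all tested genes.

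**Figure D4:**
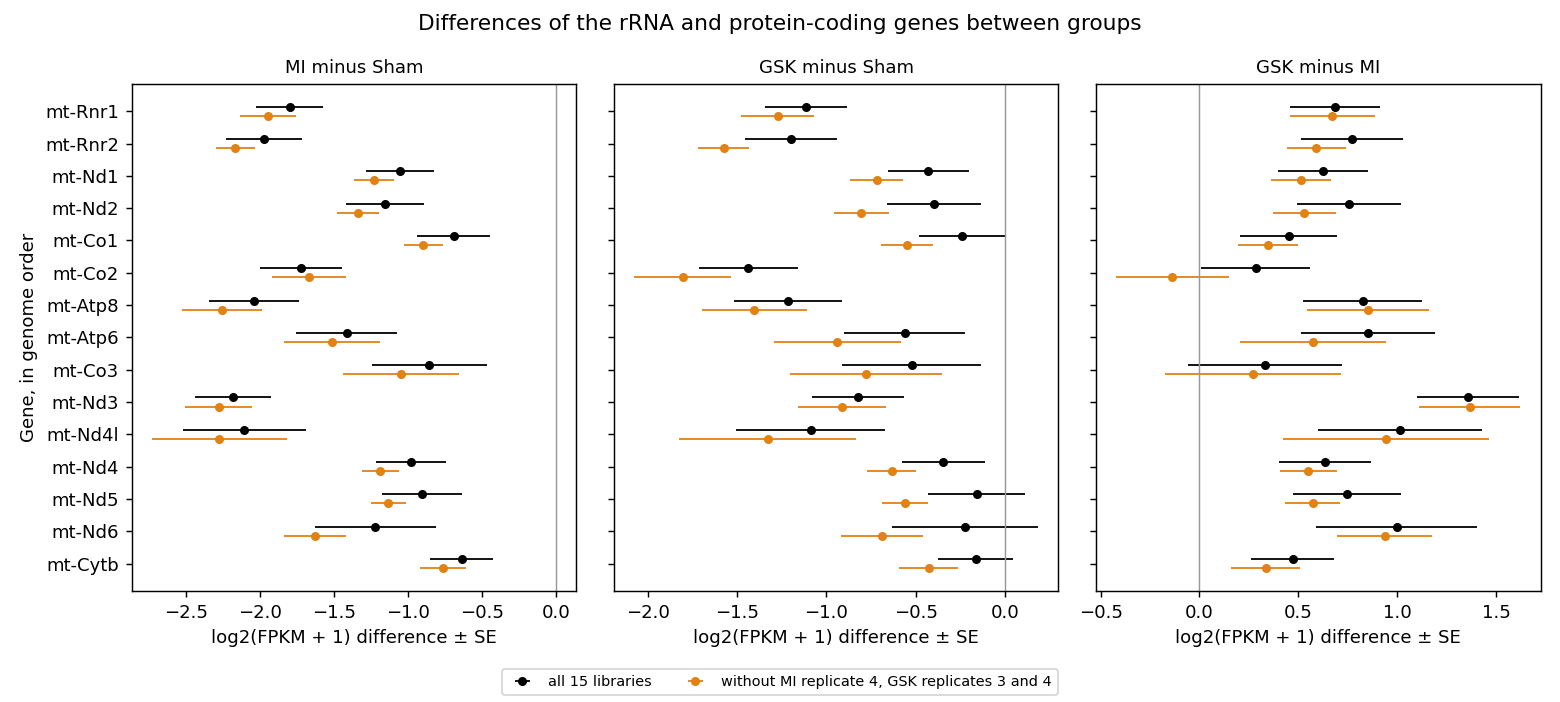
Differences in log2(FPKM + 1) between groups (points, with bars for the SE) for the 2 rRNA and 13 protein-coding genes, with all 15 libraries (black) and without MI replicate 4 and GSK replicates 3 and 4 (orange). In GSK minus Sham the median of the 13 protein-coding genes moves from -0.43 to -0.78 without these libraries, and in MI minus Sham from -1.16 to -1.34.

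Within the mitochondrial mRNA pool the genes did not change in proportion. mt-Co1 held 32.8% to 36.8% of the summed FPKM of the 13 genes in Sham, 37.8% to 39.8% in MI and 35.2% to 36.4% in GSK, so all MI libraries were above all Sham and all GSK libraries, MI replicate 4 included. mt-Nd1 held 14.0% to 15.7% in Sham against 12.0% to 13.5% in MI, and mt-Nd2 9.84% to 10.7% against 7.57% to 9.45%. The shares of mt-Nd3 (0.229% to 0.397% against 0.0803% to 0.141%) and mt-Atp8 (0.0199% to 0.0406% against 0.00907% to 0.0126%) were also wholly lower in MI. The other 8 genes overlapped between MI and Sham. The share of mt-Cytb was 14.4% to 16.4% in Sham and reached 20.0%, 20.7% and 21.4% in MI replicates 1, 3 and 5, but 15.6% and 15.2% in replicates 2 and 4.

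The chromosome 1 copies were themselves listed with expression. In Sham, per 100 FPKM of the mitochondrial gene, the copy had 48.9 FPKM for mt-Atp6, 40.2 for mt-Co2, 36.3 for mt-Co3, 25.4 for mt-Nd4l, 18.7 for mt-Nd3, 2.32 for mt-Nd4 and 1.34 for mt-Co1. Summed over the copies (mean ± SD, n = 5), Sham had 4022 ± 413 FPKM, MI 2393 ± 2024 FPKM and GSK 2616 ± 871 FPKM. Without the 3 libraries that stood apart the sums were 1492 ± 244 FPKM in MI (n = 4) and 2034 ± 271 FPKM in GSK (n = 3). The wide spread in MI came from Gm29216, the copy of the end of mt-Co1. It had 734, 608, 710.1, 763 and 1259 FPKM in Sham and 467, 354, 282, 3908 and 272 FPKM in MI, and MI replicate 4 was the highest of the 15 libraries. In GSK it had 380.0, 427, 1016, 817 and 424 FPKM. Adding the fragments of the copies to their genes, an alternative chosen after the data were seen, left 13 of the 13 protein-coding genes lower in MI, with mt-Co3 now passing (-0.96, limma adjusted p = 0.0258).

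Nuclear genes for subunits of the same complexes were also lower. Of 72 tested nuclear subunit genes of complexes I, III, IV and V, 45 (62.5%) fell in MI and none rose, where 43.8% of all genes were called and 21.9% were lower. Their median was -0.55, and the difference from the mitochondrial genes was not tested. In FPKM, the summed mitochondrially encoded subunits stood at 6.15 to 7.55 times the summed nuclear subunits in Sham. The ratio was 4.46, 6.88, 4.81 and 3.40 in MI replicates 1, 2, 3 and 5 and 5.93, 4.75 and 6.42 in GSK replicates 1, 2 and 5. In MI replicate 4 and GSK replicates 3 and 4 it was 10.9, 11.8 and 13.1, above all 12 other libraries. The same 3 libraries were the highest in complexes I, III and IV, as in complex I, where they had 17.9, 20.4 and 23.3 against 10.7 to 12.8 in Sham. In complex V, whose mitochondrial genes both lie within the copied stretch, they had 0.142, 0.341 and 0.211 against 0.103 to 0.353 in Sham and lay within the Sham range. They were still the highest of their groups there, with 0.0557 to 0.135 in the other MI and 0.0879 to 0.183 in the other GSK libraries. Their nuclear subunit sums were 15326, 16406 and 16023 FPKM, against 11905 to 24700.1 in the other MI and 17830.1 to 26063 in the other GSK libraries.

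**Figure D5:**
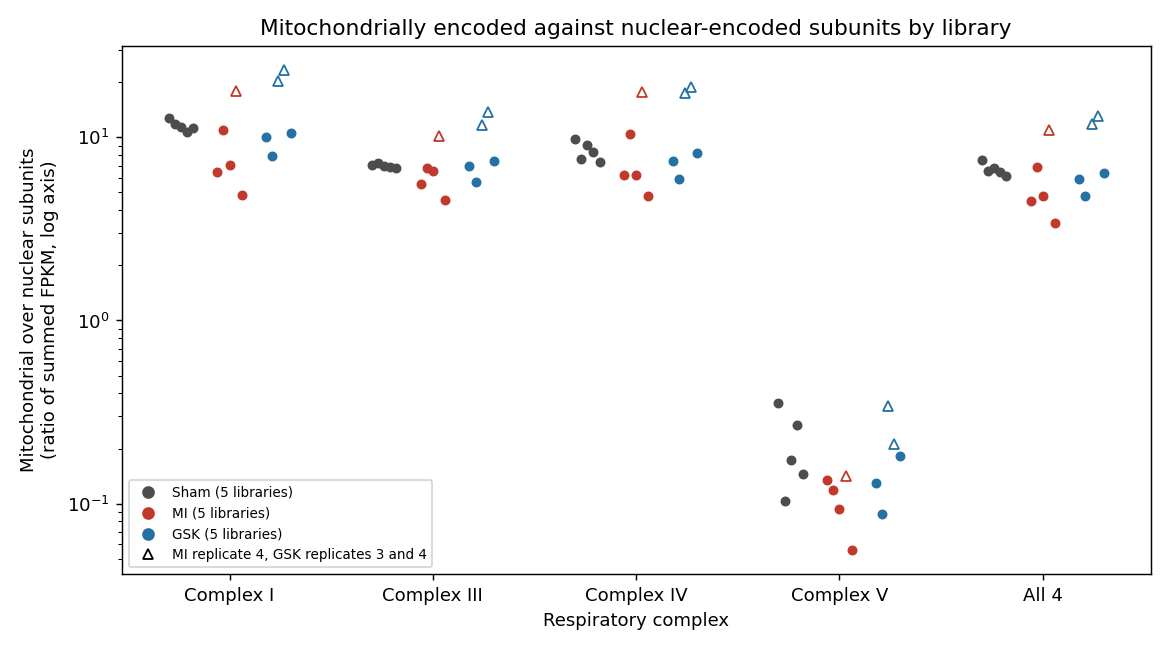
Ratio of summed FPKM of mitochondrially encoded to nuclear-encoded subunits (log axis) for complexes I, III, IV and V and for all 4, 1 point per library. The open triangles (MI replicate 4, GSK replicates 3 and 4), at 10.9, 11.8 and 13.1 for all 4 complexes, lie above the Sham range of 6.15 to 7.55.

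Genes of the nuclear machinery that copies, transcribes and processes the mitochondrial genome were examined as a list of 62, of which 61 were found and 54 tested. In MI against Sham 24 fell and 1 rose, with a median of -0.28. Calls in either direction made up 46.3% of the list, against 43.8% of all tested genes. By direction, 24 of the 54 were lower, against 2758 of all 12585 tested genes (21.9%). With FPKM totals equalised the median was 0.01 and the split turned to 10 higher and 6 lower, so the sign of the list depends on the scaling. That scaling raised the median of all tested genes about as much, as given below, so the list stayed below it. By role, 7 of 9 transcription genes, 9 of 22 RNA processing genes, 2 of 10 RNA stability genes and 6 of 13 DNA replication genes fell. Calls in either direction made up 77.8% of the transcription genes, 40.9% of the RNA processing genes, 30% of the RNA stability genes and 46.2% of the replication genes. Outside RNA stability, which held the 1 rise, every call was a fall. The other 3 shares therefore compare with the 21.9% of all tested genes that were lower.

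In transcription, Tfb2m, which opens the promoter, fell by 0.67 from 18.3 ± 0.924 to 11.3 ± 2.39 FPKM (limma adjusted p = 0.000685). Smaller falls were those of Polrmt, the mitochondrial RNA polymerase (-0.34, adjusted p = 0.0455), Tfam, which packages the genome (-0.29, adjusted p = 0.0359), the elongation factor Tefm (-0.39) and Mterf2 (-0.54). In RNA processing the largest falls were those of the tRNA methyltransferase Trmt5 (-0.76), Fastk (-0.69), the RNase P subunit Hsd17b10 (-0.56) and the rRNA methyltransferase Mrm2 (-0.52). In RNA stability Lrpprc, which keeps mRNAs from decay, fell by 0.71 from 28.7 ± 2.33 to 17.7 ± 5.00 FPKM and the ribosome-associated Ptcd3 fell by 0.48. Rexo2, an exonuclease that removes short RNA, was the single gene that rose (0.37, adjusted p = 0.0119). The poly(A) polymerase Mtpap had a difference of -0.07 that did not pass (adjusted p = 0.597), and Slirp, the partner of Lrpprc, was not tested, at 0.410 to 1.28 FPKM. In replication the exonuclease Mgme1 (-0.91), the helicase Twnk (-0.73), Rrm2b (-0.68) and the polymerase Polg (-0.31) fell. Of the genes named here, Mgme1, Rrm2b, Polg, Tfb2m, Mterf2, Fastk, Mrm2, Ptcd3 and Mtpap overlap other genes in the annotation, so their levels are less certain where counting ignored strand.

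Between GSK and MI none of the 54 was called by limma, 8 had an unadjusted p under 0.05 (21% of all tested genes did), and voom called none. Against Sham, 7 fell in GSK (13% of the list, where 18.3% of all genes were called and 7.58% were lower) with a median of -0.20, among them Mgme1 (-0.68, limma adjusted p = 0.000809) and Twnk (-0.48, adjusted p = 0.0298). That count ranged from 1 to 12 when single libraries were left out, with 12 without MI replicate 2 and 1 without Sham replicate 3 or 5 or GSK replicate 1 or 5; without the 3 libraries that stood apart it was 7.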

How the data were processed

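Poly-A RNA sequencing (paired 150-nt reads, 1000 ng of RNA with a RIN above 8, per the labels' protocols) was analysed in 15 left ventricle libraries, grouped by sample name. The authors deposited FPKM per gene with gene length and coordinates. HISAT2, featureCounts from Subread, DESeq2, R 3.5.1 and mm10 are named in the submitters' processing notes without role or order. For strand setting, annotation release and fragments with several matches, nothing was given in the sources used here. No other per-sample columns were present (0).

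FPKM times gene length gave whole fragments for 100% of values (within 0.01), and the deposited scaling total equalled 23.6 M (mega) times a median-of-ratios factor in all 15 libraries. The share of mitochondrial fragments therefore does not set the scale. Values were tested as log2(FPKM + 1), a pseudocount of 1 that understates changes of low genes, by linear models in limma 3.58.1 under R 4.3.3, with eBayes moderation along the mean trend, on genes at 1 FPKM or more in at least 5 libraries, with group means of all 15 libraries and no replicate block. P-values were Benjamini-Hochberg adjusted over 12585 genes. No count test was used as the main test, since the unit is FPKM. The fit was tested on simulated data. Ranges and shares have no test.

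All 37 genes, names, coordinates and strands matched GENCODE vM21 (GRCm38), from which sequences were taken. Copies were found with blastn 2.17.0 at 99% identity or more among GENCODE transcripts. No genome or protein sequence was used here.

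The 13 protein-coding genes are all named. Values per library are given for those of largest and smallest MI minus Sham difference, mt-Nd6, the gene of highest level and both rRNAs. The tRNA genes are named where they passed the filter or were among the 3 highest. Machinery genes are named for the largest calls, at most 12, plus Polrmt, Tfam, Tefm, Tfb2m, Lrpprc, Slirp, Mtpap, Polg and Twnk. mt-Tp, mt-Te, mt-Tc and Gm29216 are given by library or range because their values were seen. Members and lists were chosen with earlier results of these data known. Alternatives tried were pseudocount 0.1, no filter, 3 scalings, voom on recovered fragments, fits of 2 groups, a replicate block, and leaving out libraries.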

Additional observations from a re-analysis of the deposited data

Results flagged for a closer look

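A library was marked where its gap to the nearest other library of its group was too large for the range of the group by Dixon's 95% critical value. Of 57 groups examined 10 held such a library, where chance marks about 1 in 20. In MI, replicate 4 stood apart in 7 measures: mt-Nd1 (20350.3 FPKM, next 11434), mt-Co1 (66571 FPKM, next 34042), mt-Atp8 (21.1 FPKM, next 11.3), mt-Nd4 (10851 FPKM, next 6227), mt-Nd5 (12973 FPKM, next 6466), mt-Nd6 (14502 FPKM, next 5707) and the mitochondrial share of the summed FPKM (40.6%, next 27.6%). In GSK, mt-Rnr1 was high in replicate 4 (1657 FPKM, next 1017). In Sham, mt-Nd3 was high in replicate 4 (723 FPKM, next 464) and mt-Nd4 low in replicate 3 (10977 FPKM, next 12241). The cause was not tested for any of them.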

How the results depend on the processing

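Of the 13 protein-coding genes, 12 fell in MI against Sham as reported; 5 did with no filter on low values (where the SE of mt-Co1 was 2.97, against 0.25), 7 with quantile normalization, 8 without the mixed Sham libraries, 9 with FPKM totals equalised, 10 with totals without MT genes, and 9 to 13 on leaving out single libraries, the lowest without MI replicate 3. Under quantile normalization mt-Cytb turned to 0.0697 in both MI minus Sham and GSK minus Sham. That method gives equal ranks equal values, so its counts cannot decide for the genes of highest level. With FPKM totals equalised mt-Cytb was 0.0377 and mt-Nd5 0.0445 in GSK minus Sham. That scaling moved the median of all genes in MI minus Sham from -0.02 to 0.28, and 87.2% of the calls were then higher, against 50.0% as reported; with totals without MT genes it was 63.2%. In GSK minus Sham these shares were 91.1% and 81.6%, against 58.7%. In GSK minus MI the count of 0 became 0 to 2 on leaving out single libraries, and mt-Co2, 0.28 as reported, was -0.14 without the 3 libraries that stood apart and 0.0997 to 0.502 without single ones. The rRNA count in GSK minus Sham, 2 as reported, was 0 with quantile normalization. The tRNA count in GSK minus MI, 0 as reported, was 2 without MI replicate 1 and 3 without MI replicate 4. In GSK minus Sham the protein-coding count of 3 was 1 with quantile normalization, 1 without the mixed Sham libraries, 9 without the 3 libraries, and 2 to 3 on leaving out single libraries. For the machinery list, MI minus Sham gave 16 calls (10 higher) with totals equalised, against 25, GSK minus MI 0 to 1 without single libraries, and GSK minus Sham, 7 as reported, 1 with no filter, 2 with totals equalised, 2 with totals without MT genes, 16 with only these groups fitted, 2 without the mixed Sham libraries and 1 to 12 without single libraries. As a share of fragments in place of FPKM, MT genes held 21.5% in Sham, 14.2% in MI and 19.4% in GSK; the 13 protein-coding genes alone held 38.3% of FPKM in Sham. Causes were not tested.

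Most same-numbered libraries did not deviate together: 2 of 15 pairs had a correlation above 0.1 (range -0.41 to 0.49). The highest was that of MI replicate 4 with GSK replicate 4, both among the libraries that stood apart. Such correlations cannot show that no pairing exists. With the replicate block the counts were 12, 0 and 2 for the protein-coding genes (mt-Nd3 lost its call in GSK minus Sham, adjusted p = 0.0672) and 2 for the machinery list in GSK minus Sham. Genes at a few fragments, such as mt-Tv (0 to 3), are limited by depth.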
